A study of Homo sapiens with 6 samples.

Results

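Wide islands of METTL14 signal in untreated HepG2 cells, on all nuclear chromosomes except 14, are described here. In the SICER program, which was run on these ChIP-seq reads (sequenced DNA of immunoprecipitated chromatin), an island joins neighbouring windows that hold many IP reads. Members were the candidate islands of the untreated table whose end exceeded their start by at least 20000 bp. There were 916 of them among 38696 untreated candidates. They were split by their IP reads over input reads, not scaled, into 16 with a ratio of 1.1 or more and 900 with a lower one. Width and this ratio chose the classes, so the untreated values below are a description without a test.

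HepG2 is a human hepatocellular carcinoma line. All cells carried METTL14 from a lentiviral pLJM1 vector, with an HA tag at its N-terminus and EGFP at its C-terminus, and had been selected with puromycin and sorted for high GFP. The DRB group, 1 IP library and 1 input library, received 100 µM DRB for 3 h, and the untreated group, 2 IP and 2 input libraries, had no DRB. The IP used an antibody to HA, so the signal is that of the overexpressed tagged protein. Outside the mitochondrial genome, the DRB candidates held 1977419 IP and 1330018 input reads, against 14495388 and 14661480 in the untreated candidates. The deposited file gives 1 IP and 1 input count per island for the untreated group, so the spread between replicates is unknown. Every 95% interval in parentheses covers counting error only.

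METTL14 and METTL3 form the core of the m6A writer, an enzyme that methylates adenosines of RNA; METTL3 carries out the catalysis and METTL14 helps hold the RNA. The complex acts on RNA as it is made, and METTL14 is known to recognise the histone mark H3K36me3 found along transcribed gene bodies. DRB is a nucleoside analog that inhibits CDK9 and blocks the passage of RNA polymerase II into elongation. A wide island can therefore cover a whole transcription unit, but the input matters, because a region with more DNA copies also passes a read threshold over long stretches.

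Several of the 16 islands cover RNA genes whose products are short enough to show in full. Genes are named from general knowledge of the hg19 map and not from an annotation of that build. The VMP1 island on chromosome 17 includes the gene of miR-21, and the MIR17HG island on chromosome 13 includes the miR-17-92 cluster. Their mature sequences, from RefSeq on GRCh38.p14 and all on the plus strand, are given with the seed, bases 2 to 8, in capitals.
miR-21-5p: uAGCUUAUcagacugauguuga
miR-17-5p: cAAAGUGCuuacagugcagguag
miR-20a-5p: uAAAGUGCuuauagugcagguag
miR-18a-5p: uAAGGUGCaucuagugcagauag
miR-19a-3p: uGUGCAAAucuaugcaaaacuga
miR-19b-3p: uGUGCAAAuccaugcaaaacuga
miR-92a-3p: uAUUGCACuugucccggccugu

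In the miR-17-92 cluster, miR-17-5p and miR-20a-5p share 1 seed, and miR-19a-3p and miR-19b-3p share another. The seeds of miR-18a-5p and miR-92a-3p each differ from these. ChIP reads at these islands measure DNA bound by the tagged protein, not the amount of the microRNAs.

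Upstream sequences were looked up for 18 of the genes named at the islands and matched for 14; NEAT1, APOB, SFPQ and ZNFX1 had no entry. VMP1, whose start lies outside its island, MIR21 and TNFRSF10B were not looked up. Each is the 250 bases before the gene's start in RefSeq on GRCh38.p14, a build other than that of the islands. TATAAA was searched on both strands, as was GGGCGG, with overlapping copies counted separately. GGGCGG was present in 10 of the 14, against 42.3% of 27305 promoters, and TATAAA in 3, against 11.1%. A pair of these 3, H2BC4 and H2AC6, are divergent genes that share nearly all of their upstream bases and so the same TATAAA. P4HB, the remaining one, had 2 copies of TATAAA, 72.4% G and C and 37 CpG pairs, the most of the 14. The G and C content of the 14 ran from 40.4% to 77.2%, with a median of 61% against 58% in all promoters, and CpG pairs had a median of 25 against 11. A match is a description of letters and not a binding site. As examples, 3 are printed, with both motifs in capitals: MIR17HG at chr13:91347437-91347686 (plus strand), ZFAS1 at chr20:49278392-49278641 (plus strand) and H2AC6 at chr6:26123922-26124171 (plus strand).
MIR17HG: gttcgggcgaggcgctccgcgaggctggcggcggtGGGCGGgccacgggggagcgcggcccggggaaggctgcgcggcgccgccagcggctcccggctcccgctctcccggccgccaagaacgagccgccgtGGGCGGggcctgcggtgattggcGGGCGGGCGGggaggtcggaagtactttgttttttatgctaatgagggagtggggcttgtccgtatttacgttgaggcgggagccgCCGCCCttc
ZFAS1: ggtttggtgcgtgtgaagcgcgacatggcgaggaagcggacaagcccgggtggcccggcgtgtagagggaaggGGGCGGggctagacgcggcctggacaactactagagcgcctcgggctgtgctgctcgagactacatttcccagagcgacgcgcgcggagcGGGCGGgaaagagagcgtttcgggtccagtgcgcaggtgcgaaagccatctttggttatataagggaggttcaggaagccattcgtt
H2AC6: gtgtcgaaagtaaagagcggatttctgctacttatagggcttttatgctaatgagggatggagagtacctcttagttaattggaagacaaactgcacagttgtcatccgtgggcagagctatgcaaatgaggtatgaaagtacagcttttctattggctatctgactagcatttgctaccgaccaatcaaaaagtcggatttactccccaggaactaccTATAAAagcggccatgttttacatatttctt

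The MIR17HG window held 5 copies of GGGCGG and 35 CpG pairs, and the ZFAS1 window 2 copies and 26 CpG pairs. The H2AC6 window held 1 TATAAA, no GGGCGG and 6 CpG pairs.

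As a class, the wide islands were regions of dense input, in most of which IP and input were close. Together they covered 29.5 Mb and had a median width of 27.0 kb, with the widest at 138.6 kb. The median ratio was 1.15 in the 16, ranging from 1.11 to 1.51, and 0.94 in the 900, with quartiles of 0.91 and 0.97. Candidates under 20 kb had a median of 1.01. A ratio below 1 was found in 802 of the 916, which is 87.6%, against 46.4% of the candidates under 20 kb. Both sets were called on IP reads, with a median of 1668.5 IP reads in the 916 and 236 in the narrower candidates. In the authors' scaling a fold of 1 corresponds to a ratio of 0.932 in untreated cells, so the median of the 900 lay close to the scaled input. A ratio of 1.1 or more was found in 23.2% of all nuclear candidates, and nothing can be read from its share here because the ratio made the classes.

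The median ratio was lower in each wider class of candidates up to 20 kb. Outside chromosome 14 it was 1.23 under 1 kb, 1.12 from 1 to 2 kb, 1.03 from 2 to 5 kb, 0.99 from 5 to 10 kb and 0.97 from 10 to 20 kb. From 20 to 30 kb it was 0.938, from 30 to 50 kb 0.939, from 50 to 100 kb 0.926, and 0.933 in the 6 islands from 100 kb. Ratios of 1.1 or more made up 65.2% of the narrowest islands, 4.99% of those from 10 to 20 kb, and 13 of 571, 2 of 258, 1 of 81 and 0 of 6 in the 4 widest classes. Above 5 kb, input density moved with width, with medians of 49.6 reads per kb from 5 to 10 kb, 62.1 from 20 to 30 kb and 74.0 from 100 kb, although islands under 1 kb had 80.5. Its part in the ratio was not tested, nor was that of calling candidates on IP reads, of which narrow islands hold few.

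**Figure D1:**
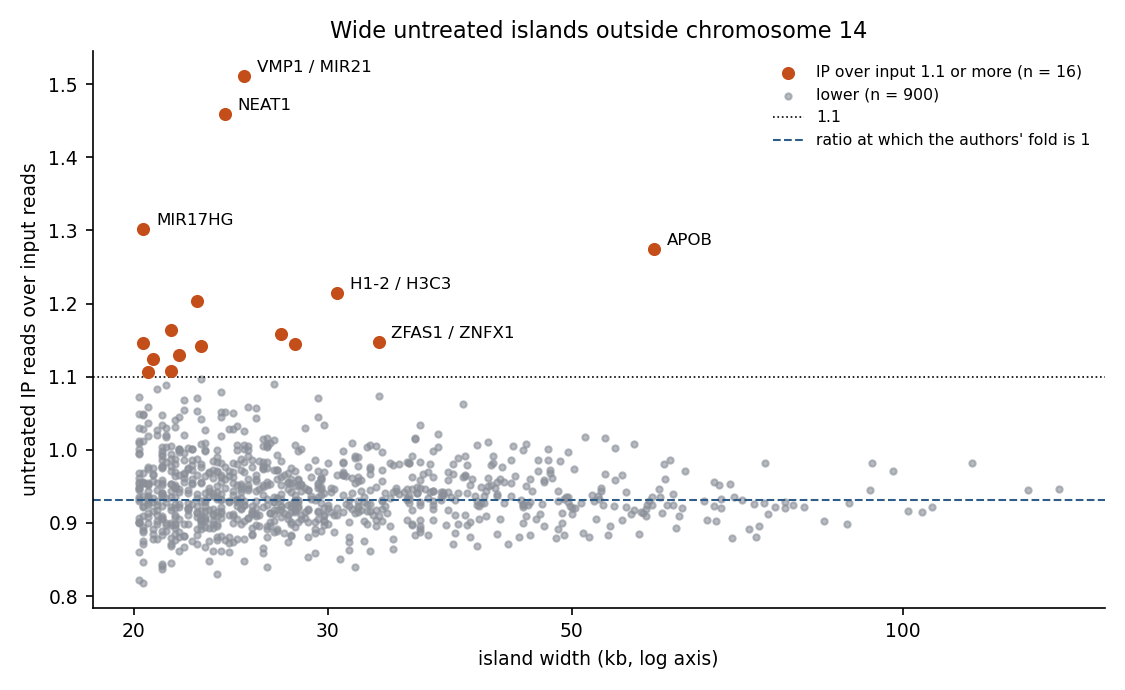
Untreated IP reads over input reads (vertical axis) against island width in kb (horizontal log axis) for the 916 wide islands, 1 point per island. Orange points are the 16 islands at 1.1 or more, grey points the other 900, and the lines mark 1.1 and the ratio of 0.932 at which the authors' fold is 1; APOB stands apart at 59.4 kb and 1.27.

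The wide islands were unevenly spread over the chromosomes. Chromosomes 2, 6, 16, 17 and 20, treated here as gained in HepG2 from general knowledge of its karyotype, held 859 of the 916, or 93.8%, against 56.8% of the candidates under 20 kb. Chromosome 2 held 426, chromosome 6 held 196, chromosome 20 held 147, chromosome 16 held 54 and chromosome 17 held 36. Copy number was not measured here, and its part in island width was not tested. Of the 16 islands at 1.1 or more, 10 lay on these 5 chromosomes and 6 elsewhere. That is 1.16% of the wide islands on the 5 chromosomes and 10.5% of the 57 wide islands on the rest. Chromosomes 15, 19, 22 and X held no wide island.

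Within the chromosomes with most members, the wide islands again had the lower ratio. On chromosome 2 the median was 0.94 in wide islands and 1.00 in narrower candidates, and on chromosome 6 it was 0.95 and 1.00. On chromosome 20 it was 0.93 in wide islands and 0.97 in narrower ones. The order was the other way on chromosomes 13 and Y, which had 2 wide islands each.

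**Figure D2:**
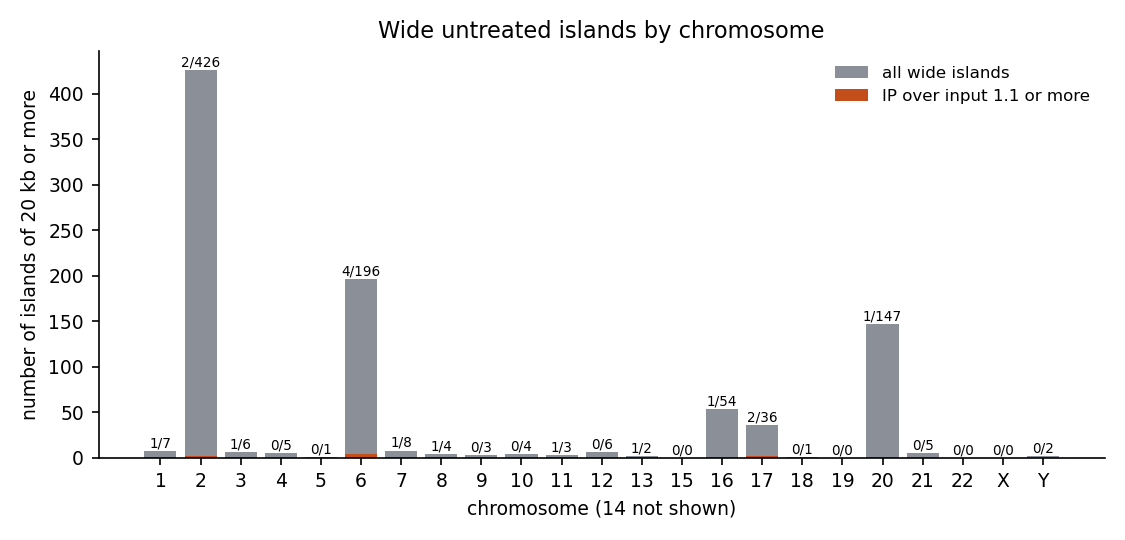
Number of wide islands (vertical axis) on each chromosome (horizontal axis, 14 not shown), with the part at an IP over input of 1.1 or more in orange and both counts written above the bar. Chromosomes 2, 6 and 20 hold 426, 196 and 147 wide islands, of which 2, 4 and 1 reached 1.1.

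The 3 highest ratios of the 16 were at VMP1 with MIR21, NEAT1 and MIR17HG, although the interval of MIR17HG overlaps that of APOB. VMP1 codes for an endoplasmic reticulum protein of autophagy, and the gene of miR-21, an abundant microRNA of many cancers, lies at its 3′ end. Its island, chr17:57902601-57927800, was 25.2 kb wide and had 3184 IP reads against 2107 input reads, a ratio of 1.51 (1.43 to 1.60). NEAT1 is the long noncoding RNA on which paraspeckles, a kind of nuclear body, are built. Its island, chr11:65183401-65207600, was 24.2 kb wide and had 2031 IP and 1392 input reads, a ratio of 1.46 (1.36 to 1.56). MIR17HG is the host transcript of the miR-17-92 cluster, and its island, chr13:91997801-92018200, had 1507 IP and 1158 input reads over 20.4 kb, a ratio of 1.30 (1.205 to 1.41). The intervals of VMP1 and NEAT1 overlap, and that of VMP1 lies above that of MIR17HG.

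Genes of the secretory pathway were represented by APOB and P4HB. APOB codes for the apolipoprotein that forms the shell of very-low-density lipoprotein in the liver. The APOB island, chr2:21220801-21280200, was the widest of the 16 at 59.4 kb, with 6065 IP and 4760 input reads, a ratio of 1.27 (1.23 to 1.32). P4HB, protein disulfide isomerase, folds secreted proteins and is a subunit of collagen prolyl hydroxylase. Its island, chr17:79810801-79832800, also covers ARHGDIA, and had 1338 IP and 1185 input reads over 22 kb, a ratio of 1.13 (1.04 to 1.22).

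A pair of islands lay in the large histone gene cluster of chromosome 6. Replication-dependent histone genes are short, have no introns and lack poly(A) tails, so islands of this width span several genes and the DNA between them. The island over H1-2, a linker histone gene, and H3C3, a histone H3 gene, chr6:26038601-26069200, had 2773 IP and 2284 input reads over 30.6 kb, a ratio of 1.21 (1.15 to 1.28). The island over H2BC4 and H2AC6, chr6:26110601-26137800, had 2191 IP and 1891 input reads over 27.2 kb, a ratio of 1.16 (1.09 to 1.23). These intervals overlap. Histone genes have near-identical copies, and how reads that match several places were treated is not given in the sources used here.

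Genes of nuclear RNA-binding and chromatin proteins formed the next group, in which the island of ZFAS1 and ZNFX1, not of that kind, is also listed. SFPQ is a splicing factor and a core protein of paraspeckles, and its island, chr1:35638601-35660200, had 1467 IP and 1260 input reads over 21.6 kb, a ratio of 1.16 (1.08 to 1.26). ZFAS1, a noncoding RNA gene that hosts small nucleolar RNAs, and ZNFX1, which codes for a helicase-like sensor of viral RNA, are transcribed away from each other. Their island, chr20:47875001-47908400, had 3347 IP and 2918 input reads over 33.4 kb, a ratio of 1.15 (1.09 to 1.21). BRD2 codes for a bromodomain protein that binds acetylated histones, and its island, chr6:32932801-32953200, had 1767 IP and 1541 input reads over 20.4 kb, a ratio of 1.15 (1.07 to 1.23). HNRNPA2B1 is an RNA-binding protein reported to read N6-methyladenosine, and CBX3, its divergent neighbour, is heterochromatin protein 1 gamma. Their island, chr7:26218801-26246800, had 1903 IP and 1662 input reads over 28 kb, a ratio of 1.15 (1.07 to 1.22). All 4 intervals of this group overlap each other.

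Genes of signalling proteins made up most of the rest. TNFRSF10B is a death receptor for TRAIL, and its island, chr8:22905401-22928200, had 1309 IP and 1088 input reads over 22.8 kb, a ratio of 1.203 (1.11 to 1.31). MARCKS is a membrane-bound substrate of protein kinase C, and its island, chr6:114175801-114198800, had 1488 IP and 1303 input reads, a ratio of 1.14 (1.06 to 1.23). FZD5 is a Wnt receptor, with 1683 IP and 1520 input reads at chr2:208617201-208638800, a ratio of 1.11 (1.03 to 1.19). SIAH2 is an E3 ubiquitin ligase, with 1293 IP and 1169 input reads at chr3:150464601-150485200, a ratio of 1.11 (1.02 to 1.198). The island at chr16:21512601-21533400 was given no gene name; it had 1928 IP and 1716 input reads, a ratio of 1.12 (1.052 to 1.1998). SIAH2 and FZD5, at 1.106 and 1.107, were the members just inside the ratio threshold, and the island over part of SYNE1, a nuclear envelope protein gene, at chr6:152681801-152704800 was just outside with 1.097 (1589 IP and 1448 input reads).

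All 16 were in the authors' deposited list of significant islands, as were 29 of the 900. That makes 4.91% of the wide islands, against 5.10% of all candidates. With an exact binomial test at the same threshold, which includes the counting error of the input, 13 of the 16 and 2 of the 900 passed. Of 38695 nuclear candidates, 278 passed with more IP and 5 with less. P4HB with ARHGDIA, FZD5 and SIAH2 did not pass this binomial test (adjusted p from 0.000149 to 0.00177). The list tests the same contrast that chose the 16, so this is no added support. In 4 of the 29 the ratio was below 1, and the deposited fold exceeded 1 only through the scaling.

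Other candidates near the 16 mostly had lower ratios. Within 100 kb of the 16 lay 117 other candidates, and their pooled ratio was below that of the island at 15 of 16 loci, with a median of 1.01 and a range from 0.90 to 1.15. The nearest of them was up to 73.2 kb away, at SFPQ. At VMP1, the island had 1.51 and its 13 neighbours pooled to 0.95 (8523 IP and 8983 input reads), with none above 1.14. The start of VMP1 lies outside this island, so some of these neighbours may lie in the same gene, which was not looked up. At APOB, the island had 1.27 and its 8 neighbours pooled to 0.97, each between 0.90 and 1.04 and all on the side of higher coordinates. The neighbours of NEAT1 pooled to 1.08; the highest of them, 1.21, is the island over MALAT1, another abundant nuclear noncoding RNA, with 911 IP and 756 input reads. The exception was HNRNPA2B1 and CBX3, where the island had 1.145 and its 2 neighbours pooled to 1.145 (418 IP and 365 input reads).

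The histone cluster had a higher surround. The neighbours of the H1-2 island pooled to 1.09 and those of the H2BC4 island to 1.13, and each of the pair is counted among the neighbours of the other. A narrower island, chr6:26147601-26164400, with 1933 IP and 1271 input reads, had a ratio of 1.52, above both. At 8 of the 16 loci no neighbour had a ratio above that of the wide island. Since the islands were chosen on their ratio, a lower value beside them is favoured by the choice.

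**Figure D3:**
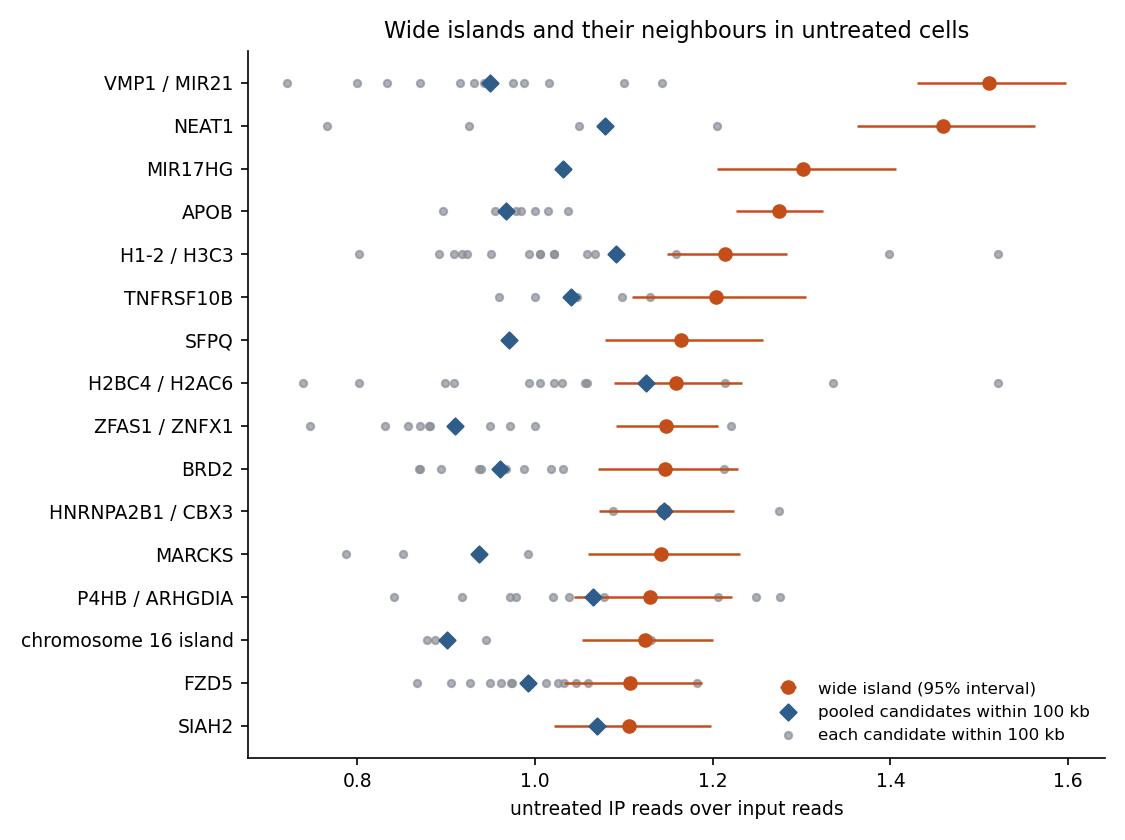
Untreated IP reads over input reads (horizontal axis) for the 16 wide islands (orange, with 95% counting intervals), their pooled neighbours within 100 kb (blue diamonds) and each neighbour (grey points), by locus. VMP1, NEAT1, MIR17HG and APOB lie to the right of all of their neighbours, while at HNRNPA2B1 / CBX3 island and pooled neighbours are both at 1.145.

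The DRB libraries were not used to choose the members, and their reads were summed over all DRB islands that touch each of them. DRB islands touched all 16 and 898 of the 900, against 61.1% of all nuclear candidates. The exceptions were chr16:76436601-76458600 and chr20:14575401-14596000. A wider island is touched more easily, and the median width was 27.0 kb in the members against 4.8 kb in all nuclear candidates. DRB islands covered a median of 46.4% of the length of the 16, 52.2% of the 900 and 21.9% of the candidates under 20 kb. Each of the 16 was broken into 1 to 12 DRB islands, 69 in all. The 2 conditions were called separately, so the sums do not cover the same sequence.

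With DRB, the 16 had a lower median ratio than the other wide islands. The median DRB ratio was 1.15 in the 16, 1.34 in the 898 and 1.51 in the candidates under 20 kb. DRB islands were called on IP reads, and where input reads were few the ratio was higher, so classes were also set side by side at like DRB input. With 50 to 100 input reads the median was 1.203 in 4 of the 16 and 1.46 in 169 of the others. With 100 to 200 it was 1.28 in 5 and 1.34 in 366, and with 200 to 500 it was 1.11 in 4 and 1.27 in 250. The 16 were lower than the other wide islands in each of these classes. Candidates under 20 kb, the highest without regard to depth, had medians of 1.29, 1.21 and 1.02 in the same 3 classes, below the 898 in each and below the 16 in the last 2. These classes held 2523, 595 and 65 of the 37469 narrow candidates. The median of the narrow candidates was 11 DRB input reads, so those in these classes are not typical of them. Islands are not replicates, so no test was made across them.

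**Figure D4:**
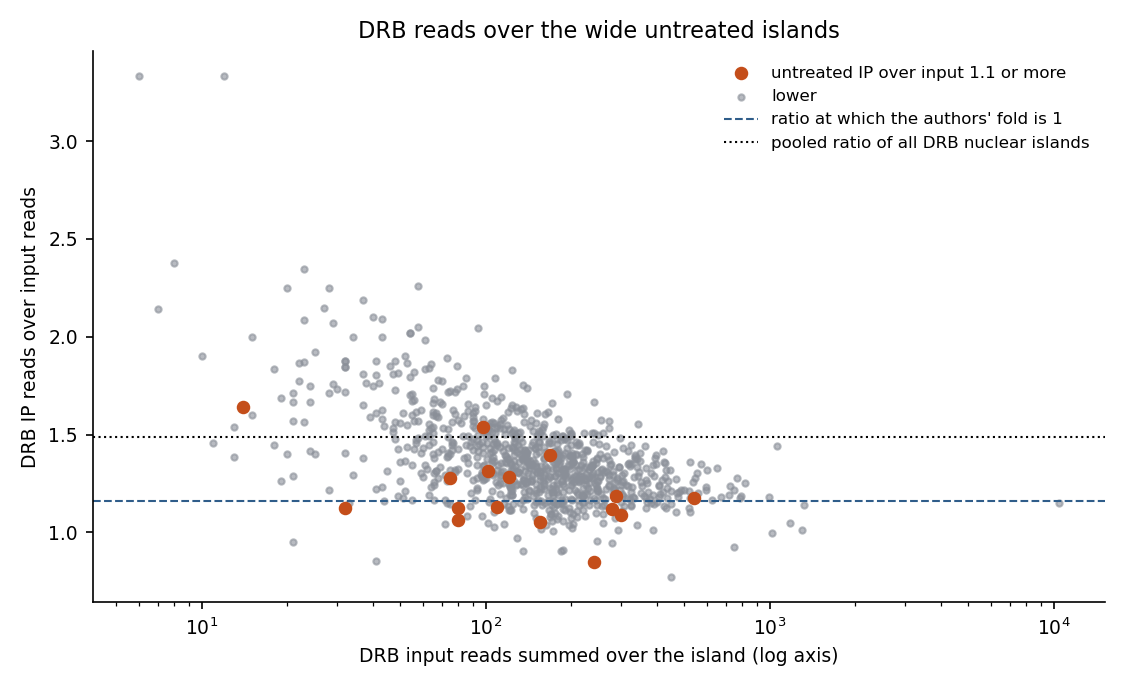
DRB IP reads over input reads (vertical axis) against DRB input reads summed over each wide island (horizontal log axis), for the 16 islands at an untreated ratio of 1.1 or more (orange) and the others (grey). The lines mark 1.162, at which the authors' fold is 1, and 1.487, the pooled ratio of all DRB nuclear islands; 8 of the 16 lie above the first line and 2 above the second.

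None of the 16 differed from the scaled DRB input at an adjusted p under 0.05 (exact binomial test, Benjamini-Hochberg over 23638 candidates; lowest adjusted p = 0.114). Unadjusted, 2 had a p under 0.05, 1 higher and 1 lower, against 3064 higher and 233 lower among the 23638 candidates. An exact one-sided Poisson test, which takes the input as known, called TNFRSF10B and H2BC4 with H2AC6 higher (adjusted p = 0.00456 and 0.0162). That Poisson test called 7825 of the 23638 candidates higher, and 415 of the 914 members with DRB reads. The summed reads come only from islands called on IP reads, which favours calls of more IP. By the exact binomial test, the chromosome 16 island was called lower with the scaling on candidates of at least 10 kb (adjusted p = 0.00256) and among candidates with at least 50 DRB input reads (adjusted p = 0.0285). These settings called 129 of 23638 and 89 of 4353 candidates lower. The authors' scaling puts a fold of 1 at a DRB ratio of 1.162, and 8 of the 16 lay above it and 8 below. Scaled to the pooled ratio of all DRB islands, 1.487, 2 lay above and 14 below, and 4 of the 14 were called lower, so the direction depends on the scaling. With that scaling 339 of the 23638 candidates were called lower, though depth differs. On the authors' scaling the fold was lower with DRB at 14 of the 16, with a median of 0.99 with DRB and 1.24 untreated, which the choice on the untreated ratio favours.

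**Figure D5:**
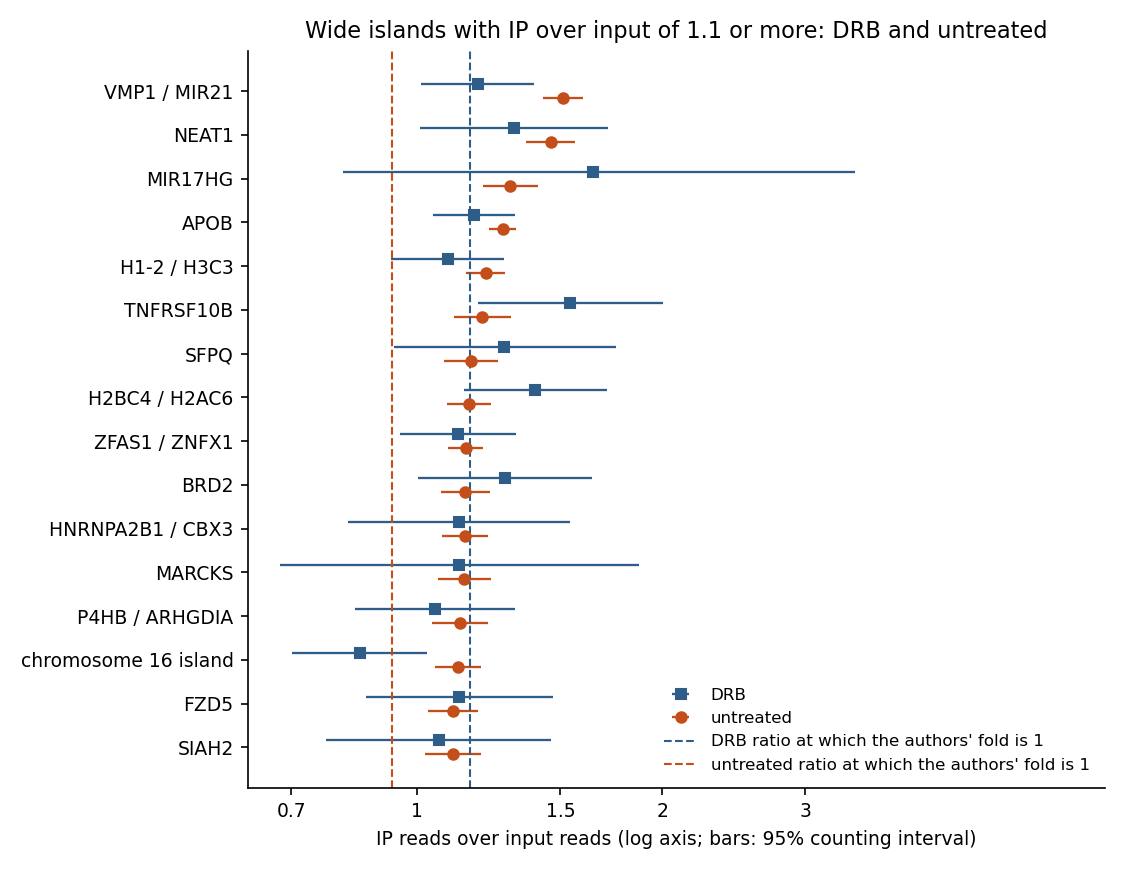
IP reads over input reads (horizontal log axis, 95% counting intervals) with DRB (blue squares) and in untreated cells (orange circles) for the 16 loci, with dashed lines where the authors' fold is 1 in each condition. The DRB interval lies wholly below the untreated one at VMP1 / MIR21 and at the chromosome 16 island and overlaps it at the other 14. With each condition on the authors' scaling it also lies wholly below at APOB, H1-2 / H3C3 and ZFAS1 / ZNFX1.

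The ratios of both conditions are given below before scaling. A scaled fold multiplies them by 0.861 with DRB and by 1.07 untreated, and the direction turned at 4 loci. The scaled fold was 1.202 with DRB and 1.24 untreated at H2BC4, 1.102 and 1.25 at SFPQ, 1.103 and 1.23 at BRD2, and 0.97 and 1.19 at FZD5. At VMP1, DRB gave 342 IP and 288 input reads in 4 islands, a ratio of 1.19 (1.01 to 1.39), against 1.51 (1.43 to 1.60) untreated. Its widest DRB island, 9.6 kb at the end of the region, had a ratio of 1.17 (0.95 to 1.43). At NEAT1, DRB gave 134 IP and 102 input reads, 1.31 (1.01 to 1.72), against 1.46 (1.36 to 1.56) untreated. At MIR17HG, a single DRB island of 1.2 kb held 23 IP and 14 input reads, 1.64 (0.81 to 3.45), against 1.30 (1.205 to 1.41) untreated, an interval too wide to place the locus.

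At APOB, DRB gave 638 IP and 543 input reads, a ratio of 1.17 (1.046 to 1.32), against 1.27 (1.23 to 1.32) untreated. Its 12 DRB islands covered 73.4% of the locus, with ratios from 0.78 to 2.57, each on 220 or fewer IP reads. At P4HB and ARHGDIA, DRB gave 164 IP and 156 input reads, 1.051 (0.84 to 1.32), against 1.13 (1.04 to 1.22) untreated.

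Of the histone islands, that over H1-2 had 326 IP and 299 input reads with DRB, 1.09 (0.93 to 1.28), against 1.21 (1.15 to 1.28) untreated. The H2BC4 island had 236 IP and 169 input reads, 1.40 (1.14 to 1.71), against 1.16 (1.09 to 1.23) untreated. The DRB intervals of this pair overlap.

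In the group of the nuclear protein genes, listed with ZFAS1 and ZNFX1, SFPQ had 96 IP and 75 input reads with DRB, 1.28 (0.94 to 1.76), against 1.16 (1.08 to 1.26) untreated. ZFAS1 and ZNFX1 had 313 IP and 279 input reads, 1.12 (0.95 to 1.32), against 1.15 (1.09 to 1.21) untreated. The widest DRB island there had 138 IP and 154 input reads, a ratio of 0.90. BRD2 had 155 IP and 121 input reads, 1.28 (1.00 to 1.64), against 1.15 (1.07 to 1.23) untreated. BRD2 held the only significant DRB island among the 16, with 40 IP and 16 input reads at its edge, against 1.68% of nuclear candidates that touch one. All nuclear candidates had a median width of 4.8 kb, against 20.4 kb at BRD2. Without DRB islands that lie mostly outside, BRD2 had a ratio of 1.095 with DRB. HNRNPA2B1 and CBX3 had 90 IP and 80 input reads, 1.13 (0.82 to 1.54), against 1.15 (1.07 to 1.22) untreated.

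TNFRSF10B had 151 IP and 98 input reads with DRB, 1.54 (1.19 to 2.01), against 1.203 (1.11 to 1.31) untreated, and an unadjusted p of 0.0306 against the scaled input (exact binomial test, adjusted p = 0.318). The chromosome 16 island had 204 IP and 240 input reads, 0.85 (0.70 to 1.03), against 1.12 (1.052 to 1.1998) untreated, and an unadjusted p of 0.00101 (exact binomial test, adjusted p = 0.114). The DRB ratio at MARCKS was 1.13 on 36 IP and 32 input reads (0.68 to 1.87), against 1.14 (1.06 to 1.23) untreated. FZD5 had 124 IP and 110 input reads with DRB, 1.13 (0.86 to 1.47), against 1.11 (1.03 to 1.19) untreated. SIAH2 had 85 IP and 80 input reads with DRB, 1.06 (0.77 to 1.46), against 1.11 (1.02 to 1.198) untreated.

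In the other 898 members with DRB reads, 12 had more DRB IP reads than the scaled input and 2 had fewer at an adjusted p under 0.05 (exact binomial test). Only reads of DRB islands were summed, and these islands were called on IP reads. Stretches with few IP reads are thus left out, which favours calls of more IP. Of the 23638 candidates tested, 0.241% were called higher and 0.250% lower, but depth differs. Counting those without DRB islands as 0, the median was 11 DRB input reads in candidates under 20 kb and 148.5 in the members. With at least 50 DRB input reads, 44 of 830 members were called higher and 5 lower, against 133 and 89 of 4353 candidates. The 12 had DRB ratios from 1.44 to 2.26 and untreated ratios from 0.93 to 1.045, with 7 on chromosome 2, 3 on chromosome 6 and 1 each on chromosomes 4 and 16. The highest, chr2:146761801-146791200, had 131 IP and 58 input reads with DRB, 2.26 (1.65 to 3.13), against 1460 and 1397 untreated. The lowest p among them was at chr2:89848401-89890600, with 1536 IP and 1066 input reads with DRB, 1.44 (exact binomial test, adjusted p = 4.93e-05), against 4185 and 4275 untreated. One more lay over PTPRK, a receptor tyrosine phosphatase gene, with 535 IP and 344 input reads with DRB, 1.56, against 4510 and 4859 untreated.

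The 2 called lower were chr17:41399601-41420800, with 345 IP and 448 input reads with DRB (0.77) against 2207 and 2226 untreated, and chr20:29610601-29638800, with 693 and 751 (0.92) against 3425 and 3600. Scaled to the pooled DRB ratio, 0 of the members were called higher and 62 lower, and scaled to candidates of at least 10 kb, 1 was called higher and 8 lower. Of the 23638 candidates, 1 was called higher and 339 lower with the pooled scaling, and 6 and 129 with the other, though depth differs. Without regard to the test, 799 members lay above the authors' scaled input and 115 below, against 221 above and 693 below with the pooled scaling and 542 above and 372 below with that of at least 10 kb. How many members were called higher or lower therefore depended on the scaling. The 2 called lower on the authors' scaling had ratios below the scaled input on each scaling tried. Of those called higher on the authors' scaling, all but chr2:89848401-89890600 (1.44) had ratios above the pooled 1.487. The next lowest, over PTPRK, had 1.56. A significant DRB island touched 48 of the 900, and 5.35% of all members, against 1.68% of nuclear candidates and 11.3% of the 310 islands of at least 20 kb on chromosome 14. The median width was 27.0 kb in the members, 4.8 kb in nuclear candidates and 36.8 kb in those on chromosome 14, and a wider island is touched more easily.

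The 5 widest members had ratios from 0.91 to 0.98. The widest of all, over ADGRG6, an adhesion G protein-coupled receptor gene, at chr6:142604801-142743400, had 10551 IP and 11150 input reads, a ratio of 0.95. The next, chr20:30903601-31033600, had 8355 and 8846, a ratio of 0.94, and chr2:226978201-227082400 had 6753 and 7386, a ratio of 0.91. The island over MAN1A1, a Golgi mannosidase gene, at chr6:119571001-119686600 had 8264 and 8410, a ratio of 0.98, and another over PTPRK at chr6:128741001-128847200 had 7359 and 7981, 0.92. With DRB, the ADGRG6 island had 1504 IP and 1317 input reads, 1.14 (1.06 to 1.23), against 0.95 (0.92 to 0.97) untreated, but its scaled fold was 0.98 with DRB and 1.02 untreated. FN1 codes for fibronectin, a plasma protein made by liver as APOB is, and its 93.8 kb island had 482 IP and 409 input reads with DRB, 1.18, against 6630 and 6754, 0.98 (0.95 to 1.02), untreated; its scaled fold was 1.01 with DRB and 1.053 untreated. The untreated interval of FN1 lies below that of APOB.

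Some lower members neared the threshold. The 2 adjoining islands over NFE2L2, the transcription factor gene of the oxidative stress response, had 2268 IP and 2082 input reads, 1.09 (1.03 to 1.16), and 1940 and 1841, 1.054 (0.99 to 1.12). H3-3B, which codes for the replacement histone H3.3, had 1869 and 1733, 1.08 (1.01 to 1.15). CCN2, a secreted matrix-associated protein gene, had 1660 and 1551, 1.07 (1.00 to 1.15), and an island in ATXN1, the gene of the polyglutamine protein ataxin-1, had 2162 and 2020, 1.07 (1.01 to 1.14). With DRB, CCN2 had 122 IP and 135 input reads, a ratio of 0.90, with an unadjusted p of 0.0454 (exact binomial test, adjusted p = 0.348). In all, 19 lower members were in the significant list with a deposited fold of 1.1 or more.

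The members of highest input density lay beside centromeres. The densest member, chr10:42373401-42400800, had 1317 input reads per kb, where the median of all candidates was 52.3. It had 12003 IP and 10430 input reads with DRB, 1.15 (1.12 to 1.18), against 34856 and 36075, 0.97 (0.95 to 0.98), untreated, and its scaled fold was 0.99 with DRB and 1.04 untreated. It was in the untreated significant list with a ratio under 1. Among the 31 lower members taken by the naming rule, FN1 included, the direction between DRB and untreated turned with the scaling in 15. The next densest were on chromosome 21 at chr21:10698001-10736600, with 135 input reads per kb, and on chromosome 20 at chr20:29610601-29638800, with 127.7. The lowest ratios were 0.82 at chr6:5218801-5239200 (875 IP and 1069 input reads), 0.82 at chr20:3928001-3948200 and 0.83 at chr20:46129401-46153200.

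Chromosome 14 held 310 islands of the same width, 22.4% of its candidates, against 4.22% on chromosome 2 and 5.38% on chromosome 20. Islands outside chromosome 14 were narrower, with medians of 27.0 kb against 36.8 kb, and less dense in input, with 64.3 against 69.1 reads per kb. Their median ratio was 0.94 against 0.96, and 16 of 916 against 2 of 310 reached 1.1. With DRB, 12 members were called higher and 2 lower than the scaled input, against 22 and 12 of the chromosome 14 islands. At the width threshold, 24 members were 20.2 kb wide with ratios from 0.82 to 1.07, and 19 islands just outside it were 20.0 kb wide with ratios from 0.87 to 1.098.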

How the data were processed

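Chromatin of 6 libraries (2 IP and 2 input libraries of untreated HepG2 cells, 1 IP and 1 input library after DRB) was sequenced as single-end reads of 50 nt, per the labels' protocols. Per the submitters' processing notes, the tools were Bowtie 1.1.2, FastQC 0.11.5 and SICER (version not stated there), and the build was hg19. How SICER was set, and how the untreated replicates were combined, is not given in the sources used here. The deposited counts are whole reads per island for the IP and the input, with 1 column for each in either condition. The deposited fold is the ratio of IP to input reads times a constant of 1.07 untreated and 0.861 with DRB, found from the values. The deposited p-value and FDR were not recomputed, and the significant lists were the islands with an FDR under 1e-04.

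From these, IP over input, reads per kb, exact Clopper-Pearson intervals at 95% of the IP share (counting error only, since reads are not independent molecules), neighbours within 100 kb and summed reads of all DRB islands with at least 1 bp of overlap were computed. A DRB island over more than 1 member was counted in each (13 repeats). DRB reads were tested against the scaled input with an exact two-sided binomial test, adjusted by Benjamini-Hochberg over the 23638 nuclear untreated candidates with DRB reads. It compares 2 libraries. It was run on reads simulated from the same binomial model that it assumes. Such a run cannot show errors from calling DRB islands on IP reads or from variation between libraries. Islands were named as members of the ratio class, as the 5 widest, 3 densest and 3 lowest of the others, at the thresholds, and by a deposited fold of 1.1 or more in the significant list. FN1, the neighbouring islands (MALAT1 among them), the members with no DRB island and those called by the DRB test fall outside this rule and were chosen after their values were seen.

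The members, lists and tests were chosen with earlier results of these data known. No annotation of hg19 was used. Gene names come from general knowledge of the hg19 map and were checked only for their chromosome in a RefSeq table of GRCh38.p14, where all 30 names of wide islands matched. The planned counts of gene lists by position were not made. The scaled fold of each condition is its ratio times the constant above. Sequences are from RefSeq (GRCh38.p14), by symbol. Values were computed in Python 3.11.15 with SciPy 1.17.1, pandas 2.3.3 and numpy 2.4.6, and plotted with matplotlib 3.10.9.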

Additional observations from a re-analysis of the deposited data

How the results depend on the processing

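The number of wide islands, 916, was 1790 at a minimum of 15 kb, 345 at 30 kb and 2679 with islands within 5 kb merged. With the last base counted, an alternative chosen after seeing the data, it was 935. The number at a ratio of 1.1 or more, 16, was 34 and 6 at the lower and the higher minimum tried, 60 by the authors' scaled fold and 6 without chromosomes 2, 6, 16, 17 and 20. Of the 45 members in the significant list, 15 passed an exact binomial test, which includes the counting error of the input. Of 38695 nuclear candidates, 1973 were in the list and 278 passed that test with more IP. The members whose DRB reads differed from the scaled input, 14, were 62 with the pooled scaling, 9 with the scaling on candidates of at least 10 kb, 415 by the one-sided Poisson test and 49 with at least 50 DRB input reads, the last chosen after seeing the data. Over all 23638 candidates tested, the Poisson test called 7825. The pooled scaling called 1 higher and 339 lower, and the scaling on candidates of at least 10 kb called 6 and 129. The other 6 alternatives of counts and medians stayed within 1.5 times or the counting interval, and so did the DRB ratio of each of the 16 loci with only DRB islands that lie mostly inside. No paired analysis was possible because the deposited file does not give the untreated replicates apart, and for the same reason no replicate could be left out. DRB depth limits the loci: a median of 115.5 input reads stood behind the DRB ratios of the 16.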

Other observations

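Wide islands often adjoined others. The nearest candidate lay within 5 kb of 12 of the 16 islands at 1.1 or more (75%), 857 of the 900 lower ones (95.2%) and 54.1% of the candidates under 20 kb. Another island of at least 20 kb lay within that distance of 1 of the 16 and 227 of the 900. The islands over NFE2L2 are such a pair.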
